A study of Mus musculus with 18 samples.

Results

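The regions described here carried a Foxa peak in a single chimera, Foxa3 with the N-terminal domain of Foxa2, called Foxa3-N2 below. They were chosen by the presence or absence of peaks in the deposited lists. Overlapping peaks of 8 Foxa chromatin immunoprecipitation sequencing (ChIP-seq) lists were merged at an overlap of 1 bp or more, and a region was kept when Foxa3-N2 was the only list with a peak in it. This left 5833 of 24999 regions (23.3%), which were 5833 of the 16543 Foxa3-N2 peaks (35.3%, 95% Wilson interval 34.5 to 36.0%). The other 10710 peaks of that list overlapped a peak of at least 1 other chimera and are called shared. Of the 11883 regions held by a single list, 49.1% belonged to Foxa3-N2.

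The Foxa proteins form a small family of forkhead transcription factors. Their winged-helix DNA-binding domain can bind target sites in compact chromatin, and in liver they open regulatory DNA for other factors, among them the nuclear receptor Hnf4alpha. The domains on either side of the DNA-binding domain contribute to activation of target genes, and they are less alike between the family members than the DNA-binding domain is.

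All cells were C57BL/6 mouse embryonic fibroblasts, taken from embryos 13.5 days after coitum and infected with Hnf4alpha plus 1 Foxa chimera to give induced hepatocyte-like (iHep) cells. Foxa3-N2 cells received Foxa3 whose N-terminal domain came from Foxa2, and their chromatin was precipitated with a Foxa2 antibody. Foxa2-C3 (Foxa2 with the C-terminal domain of Foxa3) was mapped with the same antibody and carries the same pair of terminal domains around the Foxa2 DNA-binding domain. Foxa3-N1 (Foxa3 with the N-terminal domain of Foxa1, Foxa1 antibody) shares the DNA-binding and C-terminal domains of Foxa3-N2. Foxa1-C3 (Foxa1 with the Foxa3 C-terminal domain) was mapped with a Foxa1 antibody. Foxa1-N3 and Foxa2-N3 (Foxa1 or Foxa2 with the Foxa3 N-terminal domain) and Foxa3-C1 and Foxa3-C2 (Foxa3 with the C-terminal domain of Foxa1 or Foxa2) were mapped with a Foxa3 antibody. Each chimera had 1 ChIP library, so no value has a replicate, no test was run, and every difference below compares single libraries. Read depth is unknown, since the files list peaks. Intervals cover counting error only. The antibody changed along with the chimera in most pairs of lists, and these cannot be told apart.

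Regions found only in Foxa3-N2 were mostly weak peaks of that list. Their authors' score, a number that rises with the strength of a peak within a list, ran from 5.13 to 145.6 with a median of 14.2 (quartiles 11.1 and 19.0). Shared Foxa3-N2 peaks ran from 5.35 to 372.9 with a median of 26.2 (quartiles 16.3 and 47.2). Both classes thus began at the bottom of the list, but members had the lower score at both quartiles and at the median. A score above 20 was reached by 1249 members (21.4%, interval 20.4 to 22.5%) and by 6856 shared peaks (64.0%, 63.1 to 64.9%). Above 50 there were 58 members (0.994%) and 2501 shared peaks (23.4%).

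The share of members grew down the list, with 1 small step back, from 31.5% in ranks 6001 to 7000 to 30.8% in ranks 7001 to 8000. Among the 1000 strongest Foxa3-N2 peaks 5 were members (0.5%, interval 0.214 to 1.17%), and among ranks 1001 to 2000 there were 26 (2.6%). Ranks 5001 to 6000 held 208 members (20.8%) and ranks 10001 to 11000 held 487 (48.7%). In the last band, ranks 16001 to 16543, members made up 72.0% of the peaks (68.1 to 75.6%). The same slope was present in the lists nearest in design. In Foxa2-C3 the single-list share was 0.3% in the first 1000 ranks, 13.6% in ranks 5001 to 6000 and 35.5% in ranks 10001 to 11000. In Foxa3-N1 it was 0.5% in the first 1000 ranks and 21.2% in ranks 5001 to 6000. At ranks 5001 to 6000 Foxa3-N2 therefore lay within the counting interval of Foxa3-N1 (18.8 to 23.8%) and above that of Foxa2-C3 (11.6 to 15.9%). Equal ranks are not equal thresholds, as the lists held 16543 peaks in Foxa3-N2, 13715 in Foxa2-C3 and 7625 in Foxa3-N1. Each list was also set against a different set of other lists.

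**Figure D1:**
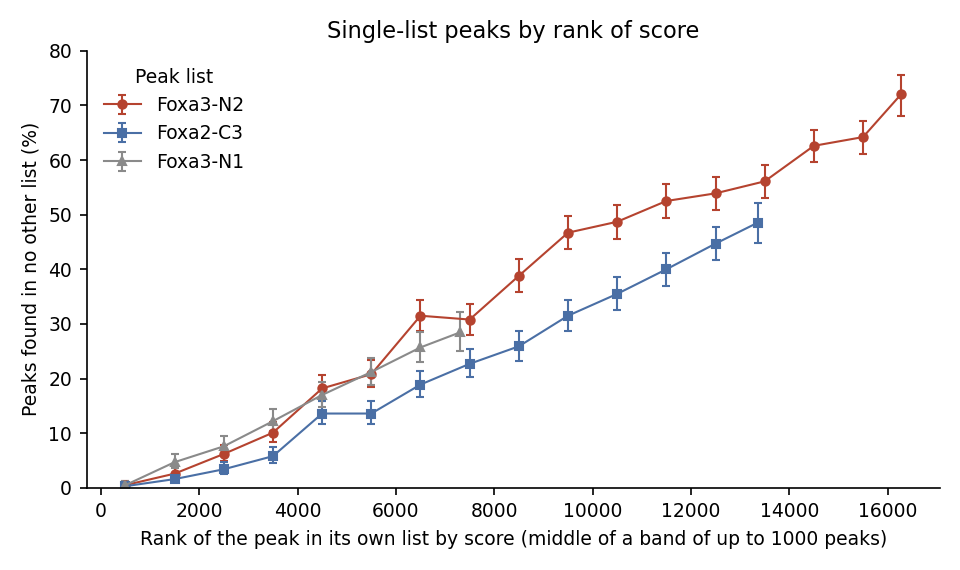
Share of peaks found in no other list (y axis, percent) against the rank of the peak by score (x axis, bands of up to 1000 peaks) in the lists of Foxa3-N2, Foxa2-C3 and Foxa3-N1; bars are 95% Wilson intervals. All 3 curves end far above where they begin, and that of Foxa3-N2 runs from 0.5% to 72.0%.

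Score and width both followed the number of lists that held a region. Foxa3-N2 peaks in 1 list had a median score of 14.2 and a median width of 358 bp. The 3782 peaks in 2 lists had medians of 19.1 and 406 bp, and the 1368 peaks in 4 lists 28.4 and 461 bp. The 534 peaks in all 8 lists had medians of 92.8 and 581.5 bp. Each further list went with a higher median in both measures, without an exception among the 8 classes.

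**Figure D2:**
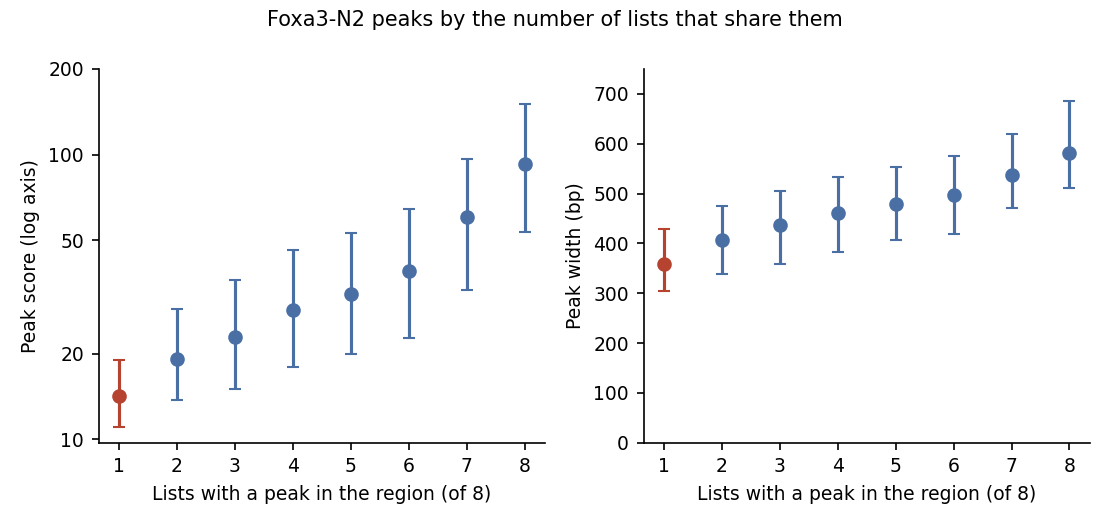
Score (left, log axis) and width in bp (right) of Foxa3-N2 peaks by the number of lists that hold the region; points are medians and bars the quartiles. The members (1 list) have the lowest medians, 14.2 and 358 bp, and regions of all 8 lists the highest, 92.8 and 581.5 bp.

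Members were narrower than shared peaks, and most of this went with their lower score. The median width was 358 bp for members (quartiles 305 and 429) and 453 bp for shared peaks (quartiles 372 and 535), a difference of -95 bp. The narrowest width in the list, 275 bp, belonged to 404 members (6.93%) and 206 shared peaks (1.92%). Within 5 score classes of about equal size, cut over the whole list, the gap nearly closed. In the lowest class (scores up to 12.4) the medians were 314 bp for 2085 members and 318 bp for 1226 shared peaks. In the middle class they were 398 and 401 bp. In the highest class (scores from 41.4) they were 530 bp for 115 members and 548 bp for 3194 shared peaks. Members were narrower in each of the 5, by 3 to 18 bp.

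The strongest member lay on chromosome 12 from 89082755 to 89083801, with a score of 145.6, a width of 1047 bp and rank 294 in the list. The 10 peaks ranked directly above it and the 10 below were all shared, by a median of 7 of the 8 lists and by at least 2. Its nearest peak of another chimera was a weak one of Foxa2-N3, 5.69 kb away, with a score of 11.0. The second member, on chromosome 3 from 16901949 to 16902691, had a score of 115.9 and rank 532. No peak of another chimera was closer to it than 315 kb. These 2 regions thus stood among peaks that most chimeras had in common, one of them with a weak neighbour and the other with none nearby.

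The next members by score were on chromosome 5 (76865986 to 76866608; score 94.6, rank 840), chromosome 2 (54364418 to 54364935; score 92.3, rank 879) and chromosome 1 (43825305 to 43825838; score 88.2, rank 946). All 3 had a Foxa2-C3 peak as their nearest neighbour in another list, at 91.5, 45.7 and 29.3 kb. They completed the 5 members within the 1000 strongest peaks. A member on chromosome 2 (33092993 to 33093509; score 85.3) lay 13.2 kb from a Foxa1-C3 peak. One on chromosome 6 (86183778 to 86184298; score 83.0) lay 24.2 kb from a Foxa2-C3 peak. A member on chromosome 18 (70084987 to 70085805; score 81.3, width 819 bp) lay 1.53 kb from a Foxa3-N1 peak with a score of 28.5. That was the shortest distance among the 20 strongest members.

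The other 12 of the 20 strongest had scores from 68.1 to 79.3. Chromosome 8 held 3 of them, at 113441325 to 113441881 with a score of 76.9, at 89552020 to 89552518 with 69.1 and at 6044048 to 6044560 with 68.3. Chromosome 14 held a wide one of 917 bp (26295560 to 26296476; score 71.2), 4.02 kb from a Foxa2-C3 peak with a score of 58.2, and another at 56956694 to 56957207 with a score of 70.8. On chromosome 16 the regions 86501515 to 86502267 and 25374169 to 25374724 scored 70.6 and 68.1. Single members of this set were found on chromosome 10 (96859720 to 96860418; score 79.3), chromosome 3 (59904297 to 59904808; score 76.2), chromosome 6 (16589285 to 16589857; score 71.2), chromosome 2 (115716506 to 115717010; score 68.2) and chromosome 5 (87882178 to 87882878; score 68.1). The 20 were spread over 11 chromosomes and had a median width of 556.5 bp. A Foxa2-C3 peak was the nearest neighbour of 9 of them. Of the 20, 4 had a peak of another chimera within 10 kb and 5 had none within 100 kb. The most remote of them was the member last named, 645 kb from the nearest peak of another chimera.

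Among all 58 members with a score above 50, 19 (32.8%) had a peak of another chimera within 10 kb. For all members the number was 1992 (34.2%, interval 32.9 to 35.4%). These shares were close, and 58 regions give the first of them a wide counting error. Within 1 kb there were 393 members (6.74%) and within 100 bp 33 (0.566%), so few members were near misses of the overlap rule. The nearest foreign peak was a median of 19.4 kb away (quartiles 5.80 and 58.2 kb). Foxa2-C3, the longest of the other lists, had a peak within 10 kb of 1623 members (27.8%), followed by Foxa3-N1 with 943 (16.2%) and Foxa3-C1 with 894 (15.3%). Foxa1-N3, the shortest list with 956 peaks, had one within 10 kb of 128 members (2.19%). This order was that of list length, 13715 peaks for Foxa2-C3, 7625 for Foxa3-N1 and 7533 for Foxa3-C1, and it held for all 7 other chimeras.

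The 5 members closest to the edge of the rule had scores from 8.83 to 25.4, and the 5 shared peaks closest to it from 8.56 to 15.6. The member closest to another list lay on chromosome 11 (106649979 to 106650273; score 12.7), 3 bp from a Foxa3-C1 peak with a score of 22.2. A member on chromosome 17 (26651942 to 26652216; score 8.83) ended 5 bp before a Foxa3-N1 peak. The next 3 had scores of 25.4, 11.6 and 12.2. Of these, a pair on chromosome 4 at 97535474 to 97535871 and at 70214844 to 70215203 lay 8 bp from Foxa3-C1 and 9 bp from Foxa3-N1, and the last, on chromosome 17 at 8138222 to 8138559, lay 14 bp from Foxa3-C1. Just outside, the shared peak with the smallest overlap lay on chromosome 16 (73869671 to 73869996; score 15.0) and met a Foxa2-C3 peak over 12 bp. The next 4 lay on chromosome 13 (21872579 to 21872921; overlap 13 bp), chromosome 1 (88338004 to 88338545; 20 bp), chromosome 19 (55640473 to 55640769; 22 bp) and chromosome 9 (41908692 to 41909105; 35 bp). Only 9 shared peaks had an overlap under 50 bp, and the median overlap was 410 bp.

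The size of the class rested on 1 other list above all. Of the shared peaks, 2909 were shared with Foxa2-C3 alone, with a median score of 20.04 and a median width of 412 bp. Without the Foxa2-C3 list the number of regions found only in Foxa3-N2 was 8758 in place of 5833. Foxa3-N1 alone shared 409 peaks (median score 17.3), Foxa1-C3 alone 195 (18.6), Foxa3-C1 alone 154 (14.8), Foxa2-N3 alone 89 (14.5) and Foxa3-C2 alone 26 (15.1). Foxa1-N3 was the sole partner of 0 peaks. Leaving out any of these 6 gave from 5833 to 6242 regions.

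List length also entered. When each list was limited to its 956 strongest peaks, 240 Foxa3-N2 peaks were in no other list (25.1%, interval 22.5 to 27.9%), against 233 for Foxa1-N3 (24.4%, 21.8 to 27.2%) and 105 to 163 for the other 6 chimeras. The first 2 shares differed by less than their counting error. With 3594 peaks per list, and all 956 of Foxa1-N3, the number was 706 in Foxa3-N2 (19.6%, 18.4 to 21.0%). The next highest was 603 in Foxa3-C1 (16.8%, 15.6 to 18.0%), and Foxa2-C3 had 462 (12.9%).

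The same split gave the same direction in each of the 8 lists. Peaks found in a single list had a lower median score and a smaller median width than the shared peaks of their list in all 8. The median score of shared peaks was 1.85 times that of single-list peaks in Foxa3-N2, 1.73 times in Foxa2-C3 and 1.41 to 1.55 times in the other 6. Widths differed by 95 bp in Foxa3-N2, 99 bp in Foxa2-C3 and 41 to 68 bp in the others. The best rank of a single-list peak was 257 for Foxa1-N3, 280 for Foxa3-C1, 294 for Foxa3-N2, 323 for Foxa2-N3, 450 for Foxa3-N1, 513 for Foxa2-C3, 682 for Foxa3-C2 and 788 for Foxa1-C3. Single-list peaks made up 21.3% of Foxa2-C3 (2922 peaks), 18.1% of Foxa3-C1 (1362) and 14.0% of Foxa3-N1 (1067), so the 35.3% of Foxa3-N2, the longest list, was the highest.

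Members lay farther from shared peaks than shared peaks lay from each other. They lay closer to other members than shared peaks lay to members. The nearest shared Foxa3-N2 peak was a median of 29.9 kb from a member (quartiles 8.64 and 92.6 kb) and 22.2 kb from another shared peak (quartiles 5.93 and 72.8 kb). A shared peak was found within 10 kb of 1574 members (27.0%, interval 25.9 to 28.1%) and of 3617 shared peaks (33.8%, 32.9 to 34.7%). Measured to members instead, the order turned. The nearest member was a median of 46.0 kb from another member and 65.4 kb from a shared peak, and 1370 members (23.5%, 22.4 to 24.6%) had another within 10 kb against 1715 shared peaks (16.0%, 15.3 to 16.7%). Measured to either class, peaks of that class thus lay closer than peaks of the other. Members themselves were still closer to the nearest shared peak (29.9 kb) than to the nearest member (46.0 kb).

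The contrast between members and shared peaks held within each of the 5 score classes, although scores were not equal within a class. In the highest class the median score was 50.2 for members and 65.8 for shared peaks. In the lowest of the 5 score classes members were a median of 27.5 kb from a shared peak and shared peaks 20.9 kb, and in the highest class the medians were 32.4 and 19.2 kb. To the nearest member the medians were 48.3 kb for members and 78.0 kb for shared peaks in the lowest class, and 33.4 and 51.0 kb in the highest. The other 3 score classes had the same order in both measures. When all lists were limited to 956 peaks, possible partners were cut as well, and 240 Foxa3-N2 peaks had none left. These were largely other peaks than the members, since only 5 members ranked among the 1000 strongest peaks of the full list. For these 240 the first difference turned. They lay closer to shared peaks than shared peaks did to each other, a difference of -92.4 kb between the medians.

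**Figure D3:**
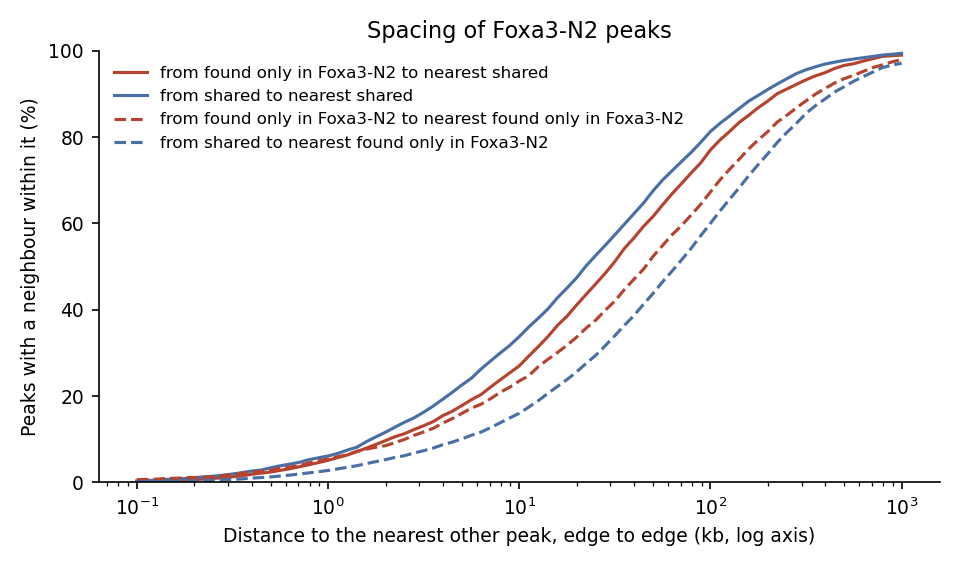
Percent of Foxa3-N2 peaks (y axis) with a neighbour of the named class within the distance on the x axis (kb, edge to edge, log axis), for members and for shared peaks. At 10 kb the curves to the nearest shared peak stand at 27.0% for members and 33.8% for shared peaks, and those to the nearest member at 23.5% and 16.0%.

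Most members stood alone. Chained at 10 kb, they formed 5067 groups, of which 4463 held 1 member, 510 held 2 and 73 held 3. Only 21 groups held 4 or more. The largest was far beyond the rest: 37 members on chromosome 9 from 3000019 to 3038366, a stretch of 38.3 kb of which they covered 63.7%. Their scores ran from 7.996 to 32.8 with a median of 14.3, and their widths from 275 to 2801 bp with a median of 601 bp. The gaps between them had a median of 219 bp. No list other than Foxa3-N2 had a peak within 100 kb of this stretch except Foxa3-C1, with 1 peak (3034573 to 3034985; score 11.0). The first member of the group, at 3000019, was also the first Foxa3-N2 peak of the chromosome. In Foxa2-C3, mapped with the same antibody, the first peak of the chromosome began at 3335158.

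The widest members were drawn from the same place. Of the 10 widest, 5 lay in the chromosome 9 group, led by the widest of all (3035566 to 3038366; 2801 bp, score 20.2). The others of the group were 1288 bp (3021340 to 3022627), 1186 bp (3017681 to 3018866), 1052 bp (3025177 to 3026228) and 996 bp (3031779 to 3032774). The remaining 5 lay on chromosome 7 (77768969 to 77770590; 1622 bp, score 15.8), chromosome 12 (the strongest member), chromosome 10 (99094929 to 99095948; 1020 bp), chromosome 2 (98506550 to 98507537; 988 bp) and chromosome 6 (90456357 to 90457327; 971 bp). Apart from the strongest member, these wide regions had scores of 28.7 or less, so great width and high score did not go together at this end. Widths over 1000 bp were found in 7 members (0.120%) and 99 shared peaks (0.924%).

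On chromosome 6 a group of 8 members had an even spacing, and a second group nearby had it in part. The first, from 47604844 to 47635670, held 8 members with scores from 11.4 to 27.0. The 7 steps from midpoint to midpoint lay between 4.28 and 4.38 kb, with a mean of 4.32 ± 0.0378 kb (SD, n = 7 steps). No other chimera had a peak in this stretch, and no shared Foxa3-N2 peak lay there. The second group, from 47689735 to 47722361, began 54.6 kb further on, from midpoint to midpoint, and held 7 members with scores from 12.6 to 30.6. Its first 3 steps were 4.27, 4.41 and 4.28 kb and the fourth was 4.90 kb. A shared peak (47713136 to 47713672), met by Foxa3-C2 alone, stood between the fifth and the sixth member, so that the fifth step was 9.90 kb, made up of 5.55 kb to the shared peak and 4.35 kb beyond it. The last step was 4.43 kb, and the 6 steps had a mean of 5.37 ± 2.23 kb (SD, n = 6 steps). The even spacing was noticed after the groups had been listed.

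The remaining groups of the 5 largest lay on chromosomes 17 and 14. The 7 members on chromosome 17 from 39979967 to 39985560 covered 74.6% of 5.59 kb, with gaps of 62 to 542 bp, much as on chromosome 9. One of them (39984635 to 39985560) had a score of 55.7 and rank 2165, and the other 6 had scores from 6.99 to 15.1. The 6 members on chromosome 14 from 93464914 to 93489536 had scores from 12.5 to 29.3 and midpoint steps of 4.07 to 5.81 kb. Neither stretch held a peak of another Foxa list. The sequence under these groups was not analysed here, because no mm9 genome was used. Input signal was not analysed either, so whether the dense groups reflect Foxa binding was not tested.

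**Figure D4:**
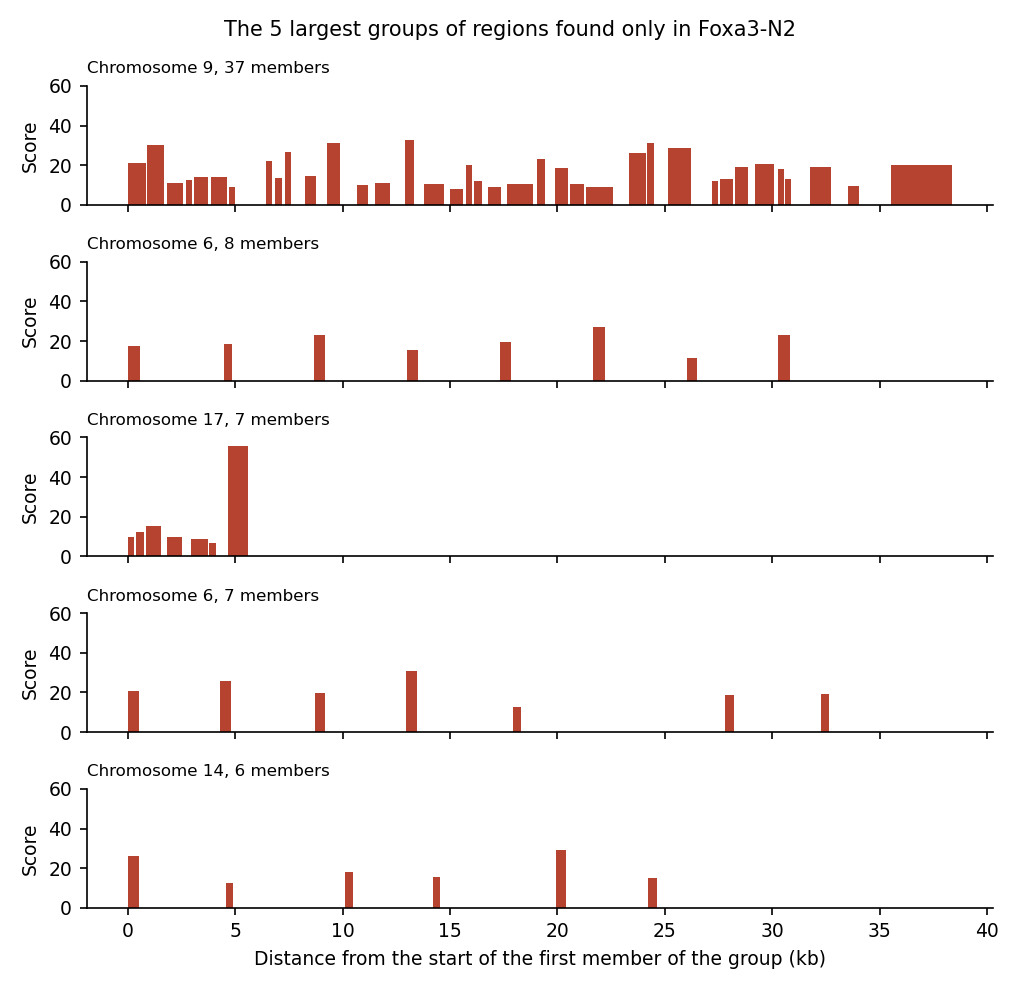
The 5 largest groups of members, each drawn from the start of its first member (x axis, kb); a bar spans a peak and its height is the score (y axis). The chromosome 9 group is dense over 38.3 kb, and the first chromosome 6 group shows 8 peaks at steps of 4.28 to 4.38 kb.

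Members were spread over chromosomes 1 to 19 and X much as the shared peaks were. To give both classes the same chromosome shares, 3.70% of the members would have to lie elsewhere. The share of Foxa3-N2 peaks that were members was highest on chromosome 6 (486 of 1228 peaks, 39.6%, interval 36.9 to 42.3%), then on chromosome 5 (38.6%, 35.6 to 41.7%) and chromosome 13 (37.5%, 34.4 to 40.8%). It was lowest on chromosome 18 (161 of 570 peaks, 28.2%, 24.7 to 32.1%). The other 16 chromosomes had shares from 33.0% to 36.7%. The intervals of chromosomes 5, 6 and 18 left out the 35.3% of the whole list.

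Within the 5 score classes these places were held only in part. From the lowest class to the highest, members made up 63.0%, 52.0%, 38.5%, 19.4% and 3.48% of the peaks over all chromosomes. On chromosome 6 the shares were 74.6%, 55.9%, 48.3%, 24.1% and 5.44%, above the whole list in each class but the highest of any chromosome only in the lowest and the middle class. On chromosome 18 they were 53.5%, 42.9%, 31.6%, 19.0% and 3.85%. Chromosome 18 was thus below the whole list in the 3 lower classes and near it in the upper ones, where it had 23 and 5 members. The 8-member and 7-member groups described above were 15 of the 486 members on chromosome 6. In Foxa2-C3 chromosome 6 had the lowest single-list share of any chromosome, 15.1%, and in Foxa3-N1 it was 10.3%, so the high share there was not found in the lists nearest in design. On chromosome 18 the shares were 21.8% and 10%.

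**Figure D5:**
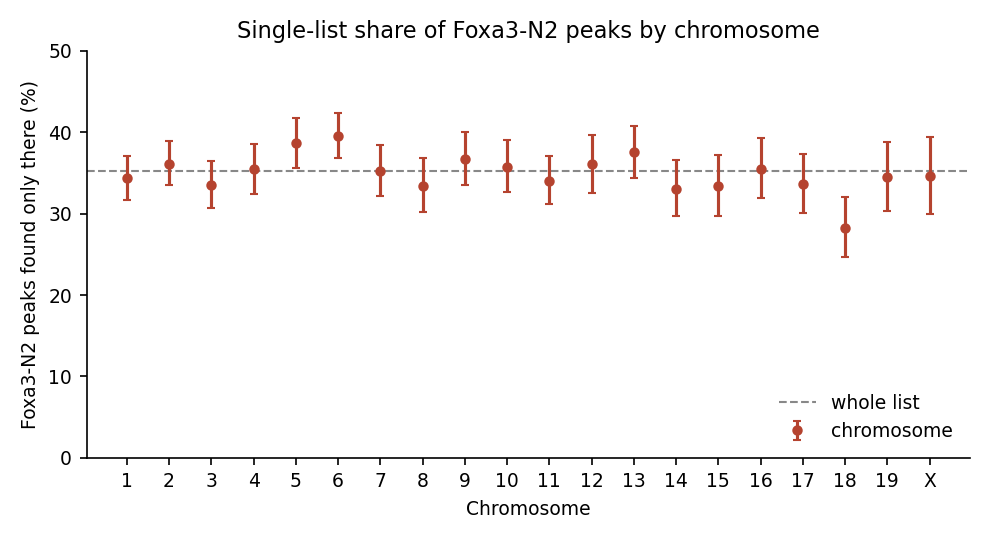
Percent of the Foxa3-N2 peaks of each chromosome that were found in no other list (y axis), with 95% Wilson intervals; the dashed line is the whole list, 35.3%. Chromosome 6 stands highest at 39.6% and chromosome 18 lowest at 28.2%.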

How the data were processed

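ChIP-seq peak lists of 9 libraries were available, 8 of Foxa chimeras and 1, titled 4a3_DA1, with conflicting labels. Apart from its title, that library is labelled as Foxa1 with an Hnf4alpha antibody. Input libraries were not analysed here. Each list gives chromosome, start, end and a score deposited by the authors (kind not given in the sources used here). The score was used to rank peaks within a list, except in the limits at the median score pooled over all lists. Whether scores of different lists share a scale is unknown. Build mm9, alignment software BWA 0.6.2, MACS2 2.1.0 and bedtools 2.16.2 are listed, per the submitters' processing notes, with settings, filters and use of input not given in the sources used here. Starts were converted to count from 1. Genes and sequences were not assigned, because the reference tables at hand are on GRCm38.

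Peaks sharing 1 bp were merged with Python 3.11.15, numpy 2.4.6, pandas 2.3.3 and scipy 1.17.1; figures used matplotlib 3.10.9. bedtools 2.31.1 gave the same number of members, 5833, and the number of planted regions was recovered in 20 of 20 simulated sets. In these sets sites lay well apart and copies of a site always overlapped, so close calls of the overlap rule were not tested. Distances run edge to edge. Regions named are the 20 strongest and 10 widest members, the 5 largest groups at 10 kb, and 5 on each side of the overlap rule; any other was picked with its values in view. The members and rules were chosen with earlier results of these data known.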

Additional observations from a re-analysis of the deposited data

Results flagged for a closer look

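Of the 5833 regions found only in Foxa3-N2, 16 met a peak of the library titled 4a3_DA1. That library was left out of the main split because its title and its other labels conflict. The other labels name Foxa1 and an Hnf4alpha antibody, so it may not be a Foxa list, and it held 698 peaks. The overlap is listed here because the library is used elsewhere only as an added list in the checks of processing. The count of 16 is above a set floor of 3 counts, which does not measure chance. How many overlaps chance would give was not tested. The share was 0.274% of members (95% Wilson interval 0.169 to 0.445%) and 0.756% of shared Foxa3-N2 peaks (81 of 10710; 0.609 to 0.939%). The strongest of the 16 lay on chromosome 1 (182743659 to 182744165; score 56.9, rank 2090), chromosome 7 (87547428 to 87547970; score 44.1) and chromosome 14 (70607962 to 70608444; score 42.1). One belonged to the dense chromosome 17 group.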

How the results depend on the processing

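Merging peaks within 1 kb, reciprocal overlap of 50%, midpoints within 200 bp, adding the 4a3_DA1 list and leaving out the chromosome 9 group (chosen after seeing the data) gave 5389 to 6087 members. With scores above the pooled median (19.2) in all lists, 2799 Foxa3-N2 peaks were in no other list. With this limit on Foxa3-N2 alone there were 1382, and with the strongest 956 and 3594 peaks of each list 240 and 706. Where all lists were cut, peaks that had lost their partners counted as single-list. The values below for those limits therefore cover other peaks besides members. Leaving out each other chimera gave 5833 to 8758, the highest without Foxa2-C3. The median score difference, members minus shared, of -12.05 was -17.42, -13.46, -26.19 and -17.9 under those 4 limits, -11.13 with merging at 1 kb, and -14.99 to -11.96 with chimeras left out. The width difference of -95 bp was -58, -54, -39.5 and -36.5 bp under the 4 limits. The distance difference of 7.74 kb was 21.98, 14.58, -92.41 and 18.88 kb under them, 14.21 kb with merging at 1 kb, which counts members close to shared peaks as shared, and 7.407 to 11.43 kb with chimeras left out; both the lowest score difference and the highest distance came without Foxa2-C3. The reversal with 956 peaks rested on 240 regions, and the cause was not tested. The chromosome dissimilarity of 3.70% was 4.673, 7.355, 14.81 and 9.67% under the 4 limits, and it was higher the fewer regions were left. Only the value with 956 peaks moved by more than 9.594 points. This bound was the halved sum of the counting errors of all chromosome shares in both classes. It is wide beside the reported 3.70%, so values within it are not shown to be unmoved. With 240 regions left the counting error is larger and was not computed, so that move cannot be read as a difference. The remaining values differed from those reported by less than the counting error of the reported values, or by less than 1.5 times for counts. For the dissimilarity the bound of 9.594 points took the place of that error. Depth is unknown, so whether members are bound below the calling threshold in other chimeras cannot be told from these files.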

Other observations

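Some stretches of the genome had Foxa3-N2 peaks of this class alone. In windows of 1 Mb, 125 of the 2061 windows with a Foxa3-N2 peak held members and no shared peak, and they contained 232 members (3.98%). The reverse, shared peaks and no member, was found in 367 windows. A window on chromosome 4 from 99 to 100 Mb had the most, 11 members with scores from 9.70 to 40.9, although other chimeras had 5 peaks elsewhere in it. The window on chromosome 14 from 93 to 94 Mb held 9 members, with 0 peaks of any other chimera. It also held 3 of the 5 members farthest from any other chimera, at 2541 to 2795 kb. The other 2 were neighbours on chromosome 1 (112379997 to 112380394 and 112385988 to 112386300), 2710 and 2704 kb from the nearest foreign peak, with scores of 9.09 and 9.22. A pair of wide members on chromosome 2 (98502345 to 98503140 and 98506550 to 98507537; scores 32.7 and 26.8) lay 1574 kb or more from the nearest peak of another chimera. Whether this pair and the other isolated regions reflect Foxa binding was not tested, since sequence and input signal were not analysed.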
